A study of Mus musculus with 8 samples.

Results

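Mouse embryonic stem cells grown with the kinase inhibitor pair known as 2i were compared with untreated cells of the same line by RNA sequencing. Of the 61535 loci in the deposited tables, 15676 were compared, namely those with a gene name, a valid estimate in both groups and at least 100 estimated counts in either. The cells came from blastocysts of the C57BL/6J strain and were grown with LIF on embryonic fibroblast feeder cells. All 4 groups of the study, the untreated one included, carried the genotype Mll1fl/fl; Cre-ER TM, a floxed Mll1 gene with a Cre recombinase that tamoxifen activates, with the promoter that drives Cre not given in the sources used here. The 2i cells received the MEK inhibitor PD03259010 (spelled as in the labels) at 1 µM together with CHIR99021, which inhibits GSK3, at 3 µM for 5 days, in medium with serum replacement. Of the other groups, MM401 cells received that MLL1 inhibitor at 100 µM and Mll1_deleted cells received 4-hydroxytamoxifen at 5 µM, both for 5 days in serum medium. Untreated cells received none of these (medium not given in the sources used here). The effects of the inhibitors and of a possible change of medium cannot be told apart. The labels name no vehicle for any of the 8 libraries.

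The MEK inhibitor blocks the kinase step that relays FGF signals to ERK, which pushes stem cells towards the state of the implanting epiblast. The GSK3 inhibitor stabilises beta-catenin, the effector of WNT signals, and relieves repression by the factor TCF7L1. Together with LIF, which acts through STAT3, the pair is used to hold mouse cells in a naive state resembling the preimplantation epiblast, with low expression of formative genes and of the de novo DNA methyltransferases.

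Each group was sequenced as 2 libraries, called biological duplicates in the labels, but the tables hold 1 pooled value per group. No spread between replicates can therefore be given and no test was run. Values are FPKM, fragments per kilobase of transcript scaled to sequencing depth, and the authors' lower and upper limits stand in square brackets. A ratio is log2 of FPKM + 1 in 2i over FPKM + 1 in untreated cells, which understates the change of low genes. A locus counts as higher or lower past a 2-fold change, and intervals are called separate where they do not meet. The estimated counts summed to 90728747 for 2i, 76501619 for MM401, 88203834 for Mll1_deleted and 84503307 for untreated cells, and the compared loci held 98.5% of the 2i and 97.9% of the untreated counts. Among stem cell genes, Pou5f1, the gene for OCT4, had 1196 [945 to 1448] FPKM in 2i and 874 [689 to 1059] FPKM in untreated cells, and Sox2 had 286 [241 to 332] FPKM in 2i and 299 [252 to 347] FPKM in untreated cells, so both groups express the factors that define the labelled cell type.

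Most loci differed little between 2i and untreated cells. The median log2 ratio was 0.06, with quartiles at −0.24 and 0.35, and 55.9% of the loci lay above 0. Of the 15676 loci, 469 (2.99%) passed 2-fold either way, 215 (1.37%) higher and 254 (1.62%) lower in 2i cells. With separate intervals required as well, 157 (1.00%) were higher and 180 (1.15%) lower. Intervals were separate at any fold at 846 loci (5.40%) with the higher value in 2i and at 702 (4.48%) with the lower. Counts of list members below are to be read beside these shares. The balance between the directions depended on the scaling: in CPM, the estimated counts scaled to a common group total, 175 were higher and 640 lower, with a median of −0.04, and with the median ratio set to 0 there were 175 and 320. Of the higher loci 29 had at least 100 FPKM in 2i cells, and of the lower loci 5 had at least 100 FPKM in untreated cells. At 70 of the lower loci the level in 2i cells was under 1 FPKM, and at 19 of the higher loci the untreated level was under 1 FPKM.

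**Figure D1:**
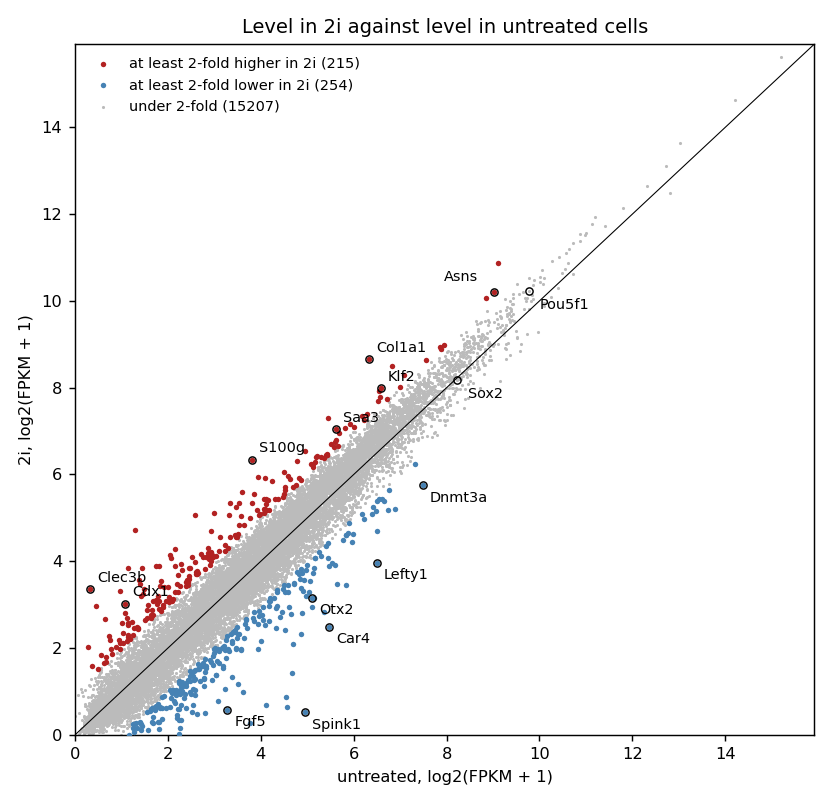
Level of each compared locus in 2i cells (vertical axis) against untreated cells (horizontal axis), both as log2(FPKM + 1), with the line of equal level. Red points are the 215 loci at least 2-fold higher in 2i, blue points the 254 at least 2-fold lower, and named genes are circled. Pou5f1 and Sox2 lie near the line, Clec3b, S100g and Col1a1 above it, and Fgf5, Spink1 and Lefty1 below it.

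Genes of the naive network mostly stayed under 2-fold, with more of them above than below the untreated level. Of 21 naive genes, 1 was higher and 1 lower in 2i cells (against 1.37% and 1.62% of all compared loci), with a median of 0.29 (0.14 in CPM). Above 0 lay 16 of them, against 55.9% of all compared loci. Intervals were separate at 5 with the higher value in 2i and at 1 with the lower. Among all compared loci these shares were 5.40% and 4.48%. The higher one was Klf2 (chr8:72319033-72321656), a zinc finger factor of the naive circuit, at 255 [214 to 295] FPKM in 2i and 95 [77.6 to 112] FPKM in untreated cells, a log2 ratio of 1.41. Its 2i level was also above the 27.5 and 91 FPKM of MM401 and Mll1_deleted cells, which were in serum medium. Gbx2, a homeobox gene that LIF induces in mouse stem cells, went the other way, at 5.18 [3.87 to 6.5] FPKM in 2i and 17.1 [13.3 to 20.8] FPKM in untreated cells. Below 2-fold but with separate intervals were the orphan nuclear receptor gene Esrrb (369 [299 to 438] FPKM in 2i against 209.6 [169 to 251] FPKM in untreated cells), Pecam1, Tcl1 and Prdm14, with log2 ratios of 0.81, 0.78, 0.76 and 0.64. Prdm14 encodes a repressor of FGF signalling and of de novo methylation, and had 29.6 [24.1 to 35.1] FPKM in 2i and 18.6 [15.1 to 22.1] FPKM in untreated cells. Nanog, Klf4 and Zfp42 had overlapping intervals. Nanog stood at 350.3 [295 to 406] FPKM in 2i against 265 [223 to 307] FPKM in untreated cells. Klf4 was at 232 [171 to 293] FPKM in 2i against 189.6 [143 to 236] FPKM in untreated cells, and Zfp42, also called Rex1, was at 33.4 [26.5 to 40.2] FPKM in 2i against 32.4 [25.6 to 39.2] FPKM in untreated cells. The joint locus of Tfcp2l1 and Gm23497 had a ratio of 0.59 but an interval from 0 upwards in both groups.

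The general pluripotency genes, 12 in number, had 0 members higher and 1 lower, with a median of −0.23. The lower one was L1td1, which encodes an RNA-binding protein derived from a LINE1 element, at 75.2 [52.9 to 97.6] FPKM in 2i and 158 [121 to 194] FPKM in untreated cells. Utf1, a chromatin factor gene, stood at 183 [149.8 to 217] FPKM in 2i against 332 [271 to 392] FPKM in untreated cells. Zfp281, which encodes a zinc finger factor needed for exit to the primed state, was at 18.8 [15.1 to 22.5] FPKM in 2i against 31.9 [25.7 to 38.2] FPKM in untreated cells. Both lay under 2-fold with separate intervals.

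Formative and primed genes had the largest share of members past 2-fold among the 38 lists. Of 17 compared, 10 were lower in 2i cells and 0 higher, all 10 with separate intervals, and the median was −1.14. Among all compared loci 1.62% were lower, and 1.15% were lower with separate intervals. Fgf5 (chr5:98254184-98277030), the growth factor gene that marks the postimplantation epiblast, had 0.498 [0.181 to 0.814] FPKM in 2i and 8.66 [6.22 to 11.1] FPKM in untreated cells, a ratio of −2.69. Pou3f1, a POU factor gene of the same stage, had 1.24 [0.873 to 1.61] FPKM in 2i and 10.3 [7.96 to 12.7] FPKM in untreated cells. Otx2, the homeobox gene that directs enhancer use on leaving the naive state, had 7.96 [5.93 to 9.99] FPKM in 2i cells, against 33.2 [25.7 to 40.6] FPKM in untreated cells, a ratio of −1.93. The remaining genes past 2-fold were Lef1 (−1.96), the joint locus of Dnmt3b and Dnmt3c-ps (−1.81), Dnmt3a (−1.74), Tcf15 (−1.57) and the SOX family members Sox4, Sox3 and Sox11 (−1.40, −1.14 and −1.12). Cldn6, Zic2, Cd24a and Wnt8a were below untreated with separate intervals and less than 2-fold, between −0.83 and −0.68. Fst, the follistatin gene, was the 1 listed gene with a positive ratio (0.20), and its intervals overlapped. Lists and members were chosen with earlier results of these data known, so the rank of a list by its share is not a test. Fgf5, Lef1, Dnmt3a, the Dnmt3b locus and Sox11 are also members of other lists below and are counted there again.

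Of 10 DNA methylation genes 2 were lower and 0 higher, and both encode de novo methyltransferases. Dnmt3a had 52.8 [32.4 to 73.1] FPKM in 2i and 178 [112 to 245] FPKM in untreated cells, and the Dnmt3b locus had 24.8 [19.9 to 29.8] FPKM in 2i and 89.5 [68.5 to 110.4] FPKM in untreated cells. Dnmt3l, the catalytically inactive partner of both, stood at 73.8 [58.2 to 89.4] FPKM in 2i against 104 [79.4 to 129] FPKM in untreated cells with overlapping intervals. Uhrf1, which directs maintenance methylation to replicated DNA, was at 178 [119 to 236] FPKM in 2i against 160.4 [107 to 214] FPKM in untreated cells. Trim28, the corepressor gene of zinc finger silencing, was above untreated under 2-fold at 1142 [909 to 1375] FPKM in 2i against 749 [593 to 906] FPKM in untreated cells. Dnmt1 had no valid untreated estimate and was not compared. Of 23 germline genes that methylation silences, 2 were higher (Fkbp6 at 1.22, and Rhox6 at 1.14 with overlapping intervals) and 0 lower, and the median was 0.06 (−0.12 in CPM).

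**Figure D2:**
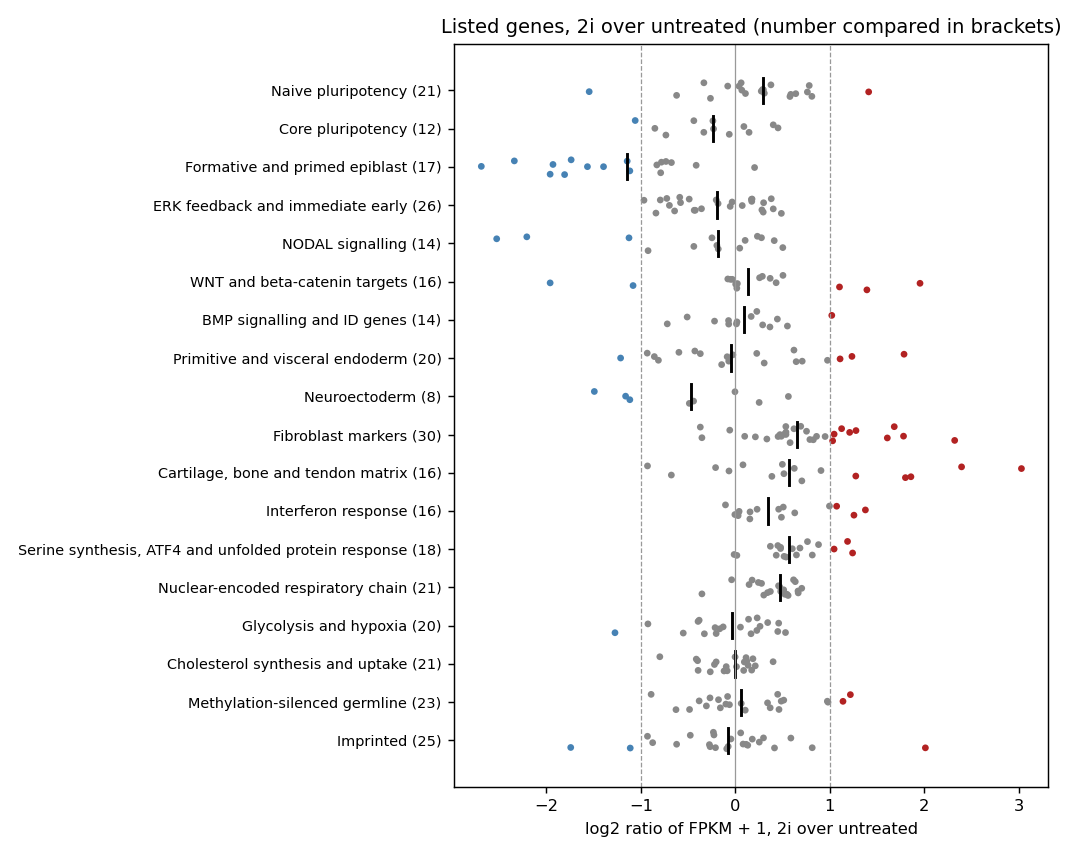
Log2 ratio of FPKM + 1, 2i over untreated, of each compared member of 18 gene lists, with the list median as a black bar and dashed lines at 2-fold. Members past 2-fold are red (higher in 2i) or blue (lower in 2i). The formative and primed list lies furthest left, with a median of −1.14, and the fibroblast list furthest right, with a median of 0.66.

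Targets of ERK, whose activation the MEK inhibitor blocks, were under 2-fold by the main rule, FPKM with a pseudocount of 1. Of 26 feedback and immediate early genes 0 passed the rule in either direction, with a median of −0.19. Separate intervals with the lower value in 2i were found at 6 of them and at 4.48% of all compared loci. Dusp4 and Dusp6 encode dual specificity phosphatases that switch ERK off. Dusp4 stood at 4.04 [3.2 to 4.88] FPKM in 2i against 8.85 [7.08 to 10.6] FPKM in untreated cells, and Dusp6 at 26.9 [20.2 to 33.6] FPKM in 2i against 47.4 [36.8 to 58] FPKM in untreated cells. Spry4, an inhibitor of receptor tyrosine kinase signalling, stood at 15 [12.2 to 17.8] FPKM in 2i against 27.6 [22.5 to 32.7] FPKM in untreated cells. Spred1 (−0.70), Spred2 (−0.73) and Egr3 (−0.49) made up the 6. Intervals overlapped for the ETS factor genes Etv4 and Etv5 and the immediate early gene Fos. Etv4 was at 91.3 [57.9 to 125] FPKM in 2i against 69.9 [43.4 to 96.4] FPKM in untreated cells, and Etv5 at 76.5 [52.9 to 99.995] FPKM in 2i against 72.6 [48.6 to 96.6] FPKM in untreated cells. Fos was at 104 [82 to 125] FPKM in 2i against 78.1 [61.9 to 94.3] FPKM in untreated cells. In CPM Dusp4 and Egr3 fell past 2-fold.

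Of 18 genes for FGF ligands, receptors and kinases of the cascade, 2 were lower and 0 higher, the ligand genes Fgf5 and Fgf15. Fgf15, whose product signals from gut to liver in the adult mouse, had 0.432 [0.21 to 0.654] FPKM in 2i and 4.72 [3.32 to 6.12] FPKM in untreated cells. Fgf4, the main autocrine ligand of stem cells, stood at 143 [121 to 166] FPKM in 2i against 133 [109 to 157] FPKM in untreated cells. Of the MEK genes, Map2k1 was at 95.3 [71.2 to 119] FPKM in 2i against 89.1 [66.2 to 112] FPKM in untreated cells and Map2k2 at 119 [93.7 to 144] FPKM in 2i against 78.7 [61.1 to 96.3] FPKM in untreated cells.

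WNT target genes moved in both directions. Of 16 compared, 3 were higher and 2 lower, all 5 with separate intervals, and the median was 0.14. Cdx1, a caudal-type homeobox gene, had 7.12 [5.64 to 8.59] FPKM in 2i and 1.09 [0.753 to 1.43] FPKM in untreated cells, a ratio of 1.96. Dkk1, which encodes a secreted WNT inhibitor, had 4.77 [3.78 to 5.77] FPKM in 2i and 1.2 [0.872 to 1.52] FPKM in untreated cells, a ratio of 1.39. Axin2, a scaffold of the complex that degrades beta-catenin and a standard readout of the pathway, had 10.6 [7.66 to 13.4] FPKM in 2i and 4.38 [3.17 to 5.59] FPKM in untreated cells, a ratio of 1.10. Setting the median ratio of loci of like GC content to 0 took Axin2 under 2-fold, as a pseudocount of 5 did for Cdx1, Dkk1, Axin2 and Fzd7. The lower ones were Lef1, a nuclear partner of beta-catenin, and the WNT receptor gene Fzd7. Lef1 had 2.94 [1.03 to 4.86] FPKM in 2i and 14.3 [7.77 to 20.9] FPKM in untreated cells, and Fzd7 had 15.9 [12.9 to 18.8] FPKM in 2i and 34.7 [28.3 to 41.1] FPKM in untreated cells. Sp5, a target that acts as a repressor, was at 0.59 [0.379 to 0.8005] FPKM in 2i against 0.178 [0.0605 to 0.295] FPKM in untreated cells, under 2-fold at these low levels with separate intervals. Lgr5, Nkd1, Tcf7 and the joint Znrf3 locus had ratios between −0.05 and 0.02. Of 18 genes of the pathway machinery 0 passed 2-fold. Gsk3b, which encodes the kinase that CHIR99021 inhibits, was at 17.7 [12.3 to 23.2] FPKM in 2i against 18.8 [12.9 to 24.8] FPKM in untreated cells. Tcf7l1 was at 70.3 [50.5 to 90.01] FPKM in 2i against 55.8 [39.6 to 72] FPKM in untreated cells, and the joint locus of Ctnnb1, the beta-catenin gene, was at 523 [397 to 649] FPKM in 2i against 643 [491 to 796] FPKM in untreated cells.

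The promoter of Dkk1 is shown for its match to the core of the TCF and LEF motif, CTTTGAA, in capitals. The window spans 250 bases before to 30 bases after the start of transcription in RefSeq, build GRCm38.p6, chr19:30549467-30549746, minus strand, and reads 5′ to 3′ along the gene.
Dkk1: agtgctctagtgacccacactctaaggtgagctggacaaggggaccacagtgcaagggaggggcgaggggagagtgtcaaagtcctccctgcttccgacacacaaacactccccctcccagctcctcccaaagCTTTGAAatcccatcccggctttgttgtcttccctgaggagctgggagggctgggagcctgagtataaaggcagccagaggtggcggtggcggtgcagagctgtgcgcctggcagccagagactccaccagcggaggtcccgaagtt
Searched on both strands, CTTTGAA was found in 4.86% of 32851 such RefSeq windows and in 2 of the 13 listed WNT targets with a window (Dkk1 and T). The other form searched, CTTTGAT, was found in 3.56% of all windows and in 2 of the 13 (Sp5 and Tnfrsf19).

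**Figure D3:**
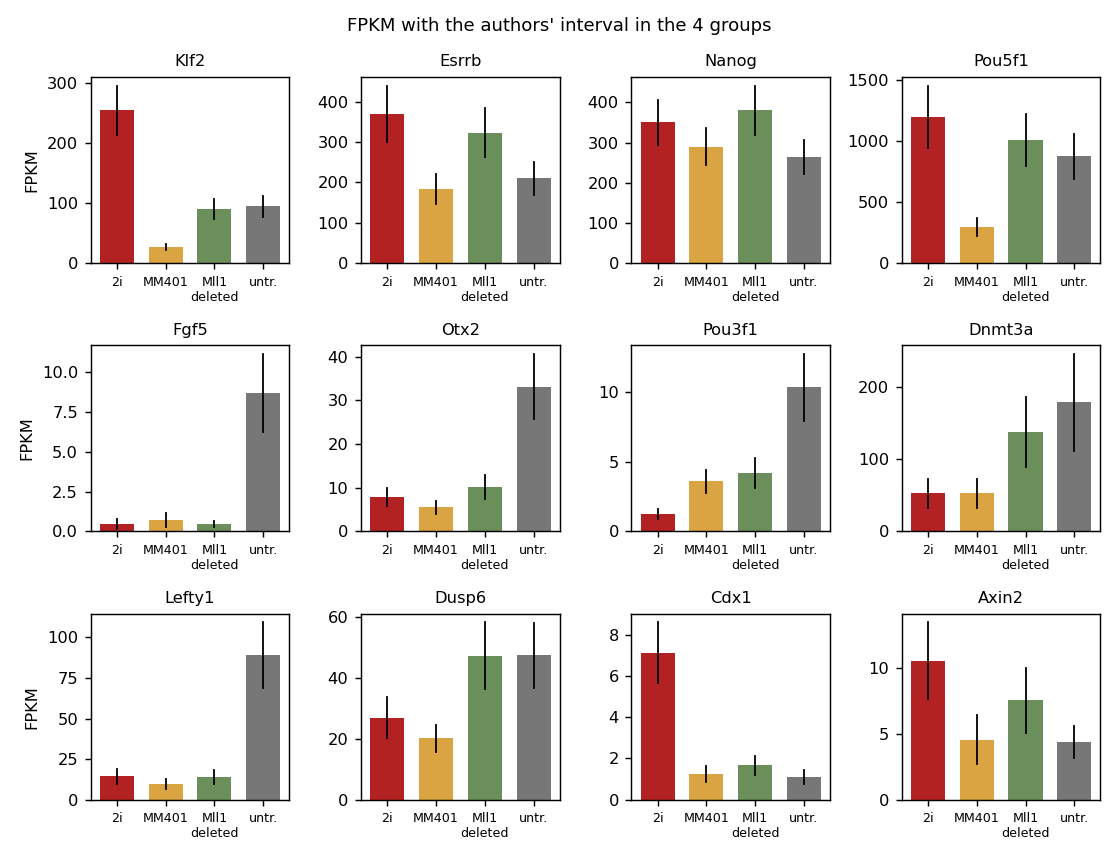
FPKM (vertical axis, starting at 0) of 12 genes in 2i, MM401, Mll1_deleted and untreated cells, in that order, with the authors' interval as a black line. Klf2 and Cdx1 stand out in 2i cells, whereas Fgf5, Otx2, Pou3f1 and Lefty1 are low in all 3 treated groups and high in untreated cells.

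Of 14 NODAL pathway genes 3 were lower and 0 higher, and all 3 encode inhibitors: Lefty1, Cer1 and Skil. Lefty1 (chr1:180935022-180938400), a secreted antagonist that NODAL itself induces, had 14.6 [9.98 to 19.2] FPKM in 2i and 89 [68.7 to 109] FPKM in untreated cells, a ratio of −2.53. Cer1, another secreted antagonist, had 0.0157 [0 to 0.0499] FPKM in 2i and 3.69 [2.79 to 4.59] FPKM in untreated cells, on estimated counts of 2.46 in 2i and 893 in untreated cells. Skil, a corepressor of SMAD proteins, had 9.23 [6.37 to 12.1] FPKM in 2i and 21.3 [16.2 to 26.4] FPKM in untreated cells. Cer1 and Skil were under 2-fold with a pseudocount of 5, and Skil after correction for GC content. The close relative of Lefty1, Lefty2, was at 59.1 [46.2 to 71.9] FPKM in 2i against 57.1 [44.7 to 69.5] FPKM in untreated cells. Nodal itself was at 51.1 [41.7 to 60.6] FPKM in 2i against 42 [34.2 to 49.8] FPKM in untreated cells.

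BMP and LIF signalling genes showed single changes. Of 14 genes for BMP signalling and ID proteins 1 was higher, Id3, at 151 [122 to 179.9] FPKM in 2i against 73.9 [59.6 to 88.2] FPKM in untreated cells, and its ratio of 1.02 went under 2-fold in CPM, with the median set to 0 and after correction for transcript length or GC content. Id1, in a joint locus, had a ratio of 0.37, and Id2 one of −0.72 with separate intervals. ID proteins hold back basic helix-loop-helix factors and are induced by BMP. Of 11 LIF and STAT3 genes 0 passed 2-fold. The receptor gene Lifr was at 6.09 [4.76 to 7.42] FPKM in 2i against 10.02 [8.02 to 12] FPKM in untreated cells. Stat3 was at 76.9 [42.9 to 111] FPKM in 2i against 61.7 [35.2 to 88.3] FPKM in untreated cells, and the feedback inhibitor gene Socs3 at 52.8 [33.7 to 72] FPKM in 2i against 58.1 [33.2 to 83] FPKM in untreated cells.

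Lineage lists differed in their members past 2-fold, to be read beside 1.37% higher and 1.62% lower among all compared loci. Of 20 primitive and visceral endoderm genes 3 were higher and 1 lower, the median was −0.05 and 11 lay below 0. Sox17, an endoderm SOX factor, had 31 [24.4 to 37.6] FPKM in 2i and 12.6 [9.75 to 15.4] FPKM in untreated cells, and the transcriptional regulator Cited1 had 37.2 [26.3 to 48.2] FPKM in 2i and 10.1 [6.44 to 13.7] FPKM in untreated cells. The basement membrane collagen gene Col4a2 had 168 [109.8 to 226] FPKM in 2i and 77.3 [52.2 to 102] FPKM in untreated cells, and in CPM it was under 2-fold. The lower one, Ttr, a thyroid hormone carrier gene, had overlapping intervals (1.05 [0 to 2.88] FPKM in 2i against 3.76 [0.844 to 6.68] FPKM in untreated cells). Gata6, the gene that starts this lineage, was at 10.2 [8.27 to 12.2] FPKM in 2i against 10.8 [8.71 to 12.9] FPKM in untreated cells. The defining markers Gata4, Gata6, Sox17 and Sox7 summed to 71.9 FPKM in 2i and 44.8 FPKM in untreated cells, with Gata4 (0.64) and Sox17 (1.24) above 0 but Gata6 (−0.07) and Sox7 (−0.43) below. Of 8 neuroectoderm genes 3 were lower, Sox1 at 0.803 [0.601 to 1.005] FPKM in 2i against 4.07 [3.27 to 4.88] FPKM in untreated cells, Sox11 and, with overlapping intervals, Pax6 (−1.16). Of 7 streak and mesoderm genes 1 was lower, the LIM homeobox gene Lhx1, at 0.108 [0 to 0.233] FPKM in 2i against 3.82 [2.75 to 4.88] FPKM in untreated cells, and of 11 trophectoderm genes 0 passed the rule. Under the count minimum, and so not compared, were 9 of 17 listed streak and mesoderm, 5 of 14 neuroectoderm and 7 of 18 trophectoderm genes.

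Genes of fibroblasts and of connective tissue matrix formed the largest set of increases among the lists. Of 30 fibroblast markers 9 were higher and 0 lower, 8 of them with separate intervals, the median was 0.66 and 27 lay above 0, against 55.9% of all compared loci. Among all compared loci 1.37% were higher, and 1.00% were higher with separate intervals. Col1a1 (chr11:94936224-94953042), a chain of type I collagen, had 402 [335 to 469] FPKM in 2i and 79.5 [66.9 to 92.1] FPKM in untreated cells, a ratio of 2.32. Its partner chain gene Col1a2 had 363 [305 to 421] FPKM in 2i and 112 [93.8 to 131] FPKM in untreated cells. The Col3a1 locus, which also holds AC125167.1, had the largest level, 1884 [0 to 4039] FPKM in 2i against 547 [0 to 1181] FPKM in untreated cells, with intervals that reach 0 in both groups. Col5a1, Col6a2, Lox, Col5a2, Lum and Col6a1 followed, at ratios between 1.03 and 1.61. Lox encodes the enzyme that crosslinks collagen, at 83.9 [68.5 to 99.3] FPKM in 2i against 35.7 [29.1 to 42.2] FPKM in untreated cells. Not every marker moved with them. The proteoglycan gene Dcn was at 76.7 [62.5 to 90.9] FPKM in 2i against 71.5 [58.2 to 84.8] FPKM in untreated cells, and the mesenchymal homeobox gene Prrx1 at 14.8 [10.6 to 19.1] FPKM in 2i against 15.5 [11.3 to 19.7] FPKM in untreated cells. Mgp, an inhibitor of calcification, was at 158 [129 to 188] FPKM in 2i against 203 [165 to 240.01] FPKM in untreated cells.

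Of 16 cartilage, bone and tendon matrix genes 5 were higher and 0 lower, with a median of 0.57. Clec3b (chr9:123150946-123157432), which encodes tetranectin, a plasminogen-binding protein of mineralising tissue, had 9.24 [7.14 to 11.3] FPKM in 2i and 0.253 [0.0524 to 0.454] FPKM in untreated cells, a ratio of 3.03 (1.44 with a pseudocount of 5), on estimated counts of 814 in 2i and 27.6 in untreated cells. Prelp, Ogn and Fmod, genes for small leucine-rich proteoglycans that bind collagen, had ratios of 2.40, 1.86 and 1.28, and Col12a1, a collagen that sits on type I fibrils, had 1.80. Col2a1, the collagen gene that defines cartilage, was at 0.748 [0.266 to 1.23] FPKM in 2i against 2.33 [1.35 to 3.31] FPKM in untreated cells, under 2-fold in FPKM (−0.93) but lower past 2-fold in CPM (−1.41), and correction for GC content also put 1 member of the list lower. Spp1, in a joint locus, was at 624 [516 to 732] FPKM in 2i against 999 [827 to 1171] FPKM in untreated cells. Sparc, which encodes a collagen-binding glycoprotein, was at 876 [726 to 1026] FPKM in 2i against 467 [385 to 548] FPKM in untreated cells.

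Per the labels, all cultures held feeder cells, which are embryonic fibroblasts. The 5 defining markers Col1a1, Col1a2, Col3a1, Thy1 and Pdgfrb summed to 2727 FPKM in 2i, 1023 FPKM in MM401, 526 FPKM in Mll1_deleted and 779 FPKM in untreated cells, with all 5 ratios above 0. Most of this sum is the joint Col3a1 locus with its wide interval, and the other 4 markers summed to 843 FPKM in 2i, 347 FPKM in MM401, 175 FPKM in Mll1_deleted and 232 FPKM in untreated cells. Thy1 stood at 71.5 [52 to 91] FPKM in 2i against 36.5 [26.2 to 46.8] FPKM in untreated cells and Pdgfrb at 6.71 [5.44 to 7.97] FPKM in 2i against 3.46 [2.78 to 4.13] FPKM in untreated cells. In such bulk samples more cells of a type and more RNA per cell cannot be told apart, and the part of the feeder cells in these increases was not tested.

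**Figure D4:**
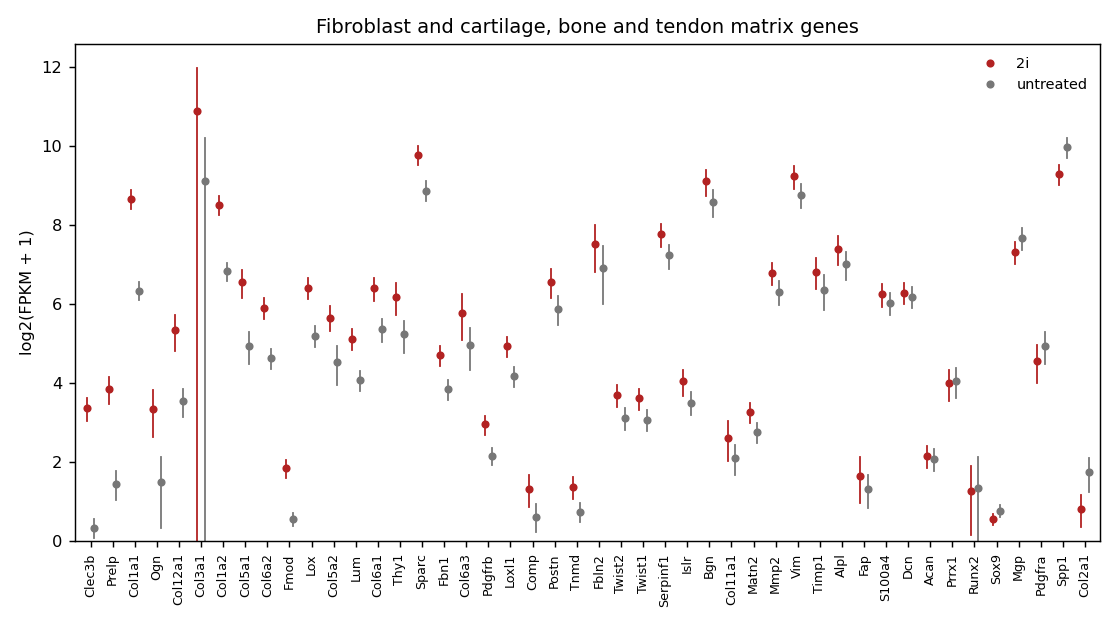
Level, as log2(FPKM + 1), of the compared fibroblast and connective tissue matrix genes in 2i (red, left of each pair) and untreated cells (grey, right), with the authors' intervals as lines, ordered by ratio. Clec3b, Prelp and Col1a1 differ most, Dcn and Acan lie at about the same level in both groups, and Spp1 and Col2a1 are lower in 2i.

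Metabolic and stress lists differed in the size of their medians. Of 18 genes of serine synthesis, ATF4 and the unfolded protein response 3 were higher and 0 lower, the median was 0.57 and 17 lay above 0 (55.9% of all compared loci did). Asns, the asparagine synthetase gene and a classic target of the factor ATF4, had 1185 [892 to 1479] FPKM in 2i and 519 [390.3 to 649] FPKM in untreated cells, a ratio of 1.19. Trib3, a pseudokinase gene under the same factor, had 142 [109.8 to 174] FPKM in 2i and 59.3 [45.4 to 73.2] FPKM in untreated cells, and Shmt2, the mitochondrial enzyme that splits serine into glycine and a carbon unit, had 507 [365 to 649] FPKM in 2i and 245 [165 to 325] FPKM in untreated cells. Shmt2 went under 2-fold in CPM, with the median set to 0 and after either correction. Trib3 did so after correction for GC content, which left 1 of 16 genes past 2-fold. Sesn2, Phgdh, Chac1 and Atf4 itself were under 2-fold with separate intervals (0.82, 0.68, 0.60 and 0.48). Hspa5 and Xbp1, genes of the unfolded protein response proper, were close to the untreated level. Hspa5 was at 508 [375 to 641] FPKM in 2i against 512 [378 to 646] FPKM in untreated cells, and Xbp1 at 57.7 [46.2 to 69.2] FPKM in 2i against 57 [45.6 to 68.4] FPKM in untreated cells.

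The promoters of Asns and Trib3 are shown for the element TGATGNAA, which ATF4 dimers bind, in capitals. Both windows run from 250 bases before to 30 bases after the RefSeq start (GRCm38.p6), Asns at chr6:7693180-7693459, minus strand and Trib3 at chr2:152344031-152344310, minus strand, 5′ to 3′ along the gene. In Trib3 the match lies on the opposite strand, so its reverse complement is in capitals.
Asns: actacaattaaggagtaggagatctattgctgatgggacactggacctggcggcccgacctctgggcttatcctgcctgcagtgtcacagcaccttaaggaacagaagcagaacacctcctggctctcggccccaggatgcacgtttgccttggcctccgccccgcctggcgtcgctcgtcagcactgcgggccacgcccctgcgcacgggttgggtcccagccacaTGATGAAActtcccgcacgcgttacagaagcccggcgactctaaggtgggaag
Trib3: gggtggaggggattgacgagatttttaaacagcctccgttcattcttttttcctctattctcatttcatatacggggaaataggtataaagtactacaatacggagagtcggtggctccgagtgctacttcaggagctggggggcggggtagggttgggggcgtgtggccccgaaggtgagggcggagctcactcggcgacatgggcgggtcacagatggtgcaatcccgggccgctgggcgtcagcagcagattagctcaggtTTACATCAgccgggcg
The match begins 23 bases before the start in Asns. TGATGNAA was found on either strand in 3.81% of the 32851 windows and in 5 of the 17 listed genes with a window, Asns, Chac1, Herpud1, Slc7a11 and Trib3.

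Nuclear-encoded genes of the respiratory chain had 0 of 21 members past 2-fold, but 19 lay above 0, against 55.9% of all compared loci, and the median was 0.47. Intervals were separate for Cox5b, a subunit of the terminal oxidase, Ndufa9 of complex I and Cyc1 of complex III. Cox5b was at 152 [120.4 to 183] FPKM in 2i against 92.8 [73.6 to 112] FPKM in untreated cells, and Ndufa9 at 109 [89.1 to 129.6] FPKM in 2i against 70.04 [57 to 83.1] FPKM in untreated cells. Cyc1 was at 269 [220.02 to 318] FPKM in 2i against 175 [143 to 207] FPKM in untreated cells. The median was 0.25 once the median of loci of like transcript length was set to 0. Glycolysis genes had 1 of 20 lower, Pdk1, at 40.7 [23.6 to 57.9] FPKM in 2i against 99.9 [60.2 to 139.5] FPKM in untreated cells, and a median of −0.04. Of 12 fatty acid synthesis genes 1 was lower, the elongase gene Elovl6, at 15.8 [11.2 to 20.4] FPKM in 2i against 34.9 [26.5 to 43.3] FPKM in untreated cells. Of 21 cholesterol genes 0 passed 2-fold, with the early pathway enzyme gene Hmgcs1 at 32.6 [26.5 to 38.6] FPKM in 2i against 57.4 [47 to 67.9] FPKM in untreated cells.

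Of 16 interferon genes 3 were higher and 0 lower, with a median of 0.35. Above 0 lay 14 of them, against 55.9% of all compared loci. Of these, 3 had separate intervals, as did 5.40% of all compared loci with the higher value in 2i. Usp18, which encodes the protease that removes ISG15 from proteins, had 7.7 [6.1 to 9.29] FPKM in 2i and 3.13 [2.35 to 3.91] FPKM in untreated cells, and Xaf1, a proapoptotic gene that interferon induces, had 41.8 [31.6 to 52.1] FPKM in 2i and 16.9 [11.1 to 22.8] FPKM in untreated cells. Irf7, the factor that amplifies the response, had wide intervals (13.4 [0 to 29.3] FPKM in 2i against 4.55 [0 to 12.8] FPKM in untreated cells). Isg15, the ubiquitin-like modifier gene, stood just under 2-fold at 22.9 [18.2 to 27.6] FPKM in 2i, 2.27 [1.49 to 3.05] FPKM in MM401, 0.862 [0.3998 to 1.32] FPKM in Mll1_deleted and 11 [8.49 to 13.5] FPKM in untreated cells. Xaf1 went under 2-fold in CPM, and Usp18 after correction for transcript length or GC content.

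The Isg15 promoter is shown for its interferon-stimulated response element, searched as GAAA repeated after a gap of 2 bases, with 3 overlapping matches in capitals. The window is built as above, chr4:156200789-156201068, minus strand, 5′ to 3′ along the gene.
Isg15: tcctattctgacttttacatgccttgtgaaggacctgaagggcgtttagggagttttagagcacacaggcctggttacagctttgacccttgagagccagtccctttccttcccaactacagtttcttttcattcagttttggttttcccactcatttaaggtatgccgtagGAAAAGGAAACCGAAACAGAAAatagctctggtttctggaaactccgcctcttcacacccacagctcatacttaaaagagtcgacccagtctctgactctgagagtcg
The first match begins 78 bases before the start. The motif was found in 3.28% of all windows and in 7 of the 12 listed interferon genes with a window, among them Isg15, Ifit1 and Stat2.

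Secreted inflammatory genes moved both ways, with 3 of 12 higher and 2 lower (against 1.37% and 1.62% of all compared loci). Ptx3, a soluble pattern recognition protein, had 16.5 [13.3 to 19.8] FPKM in 2i and 3.12 [2.36 to 3.88] FPKM in untreated cells, and the acute phase gene Saa3 had 132 [107 to 156] FPKM in 2i, 11.8 [8.91 to 14.7] FPKM in MM401, 6.36 [4.52 to 8.19] FPKM in Mll1_deleted and 47.8 [38.3 to 57.3] FPKM in untreated cells. The chemokine gene Cxcl12 was at 36 [29.2 to 42.8] FPKM in 2i against 15.7 [12.6 to 18.8] FPKM in untreated cells. Ccl2, which attracts monocytes, was lower, at 41.1 [33.2 to 49.1] FPKM in 2i against 89.8 [73 to 107] FPKM in untreated cells. Its neighbour within 100 kb, Ccl11, was lower too, at 14 [11.2 to 16.9] FPKM in 2i against 47.3 [38.4 to 56.2] FPKM in untreated cells. In MM401 cells Ptx3 stood at 23.5 [19.04 to 28] FPKM, and this interval overlapped the 2i one. The part of the feeder cells in the changes of these secreted genes was not tested.

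Lists of growth and chromatin had few members past 2-fold. Of 28 MYC and ribosome biogenesis genes 0 passed, with a median of 0.25 and 18 above 0, against 55.9% of all compared loci. Intervals were separate for 2 members with the higher value in 2i, Bop1 among them, and 2 with the lower, Mycn and Dkc1. Bop1 was at 85.9 [67.1 to 105] FPKM in 2i against 49.6 [37.9 to 61.2] FPKM in untreated cells. Mycn was at 66.6 [53.7 to 79.5] FPKM in 2i against 112 [90.5 to 133] FPKM in untreated cells. Dkc1, of the telomerase and snoRNA complex, was at 119 [80.2 to 157] FPKM in 2i against 222 [160.03 to 283] FPKM in untreated cells. Of 29 cell cycle genes 1 was higher, Ccnd2, with overlapping intervals and 103 [0 to 386] FPKM in 2i against 44.6 [0 to 158] FPKM in untreated cells. In CPM the ratio of Ccnd2 was 0.43, under 2-fold. Of 12 MLL and SET1 genes 0 passed. Kmt2a, the gene for MLL1 that is floxed in this line, had 8.72 [6.11 to 11.3] FPKM in 2i, 14.6 [10.3 to 18.8] FPKM in MM401, 11.8 [8.71 to 14.9] FPKM in Mll1_deleted and 15.5 [11.4 to 19.7] FPKM in untreated cells. The Mll1_deleted interval overlapped the untreated one, so the gene's total level in the group labelled as deleted did not show the deletion. In 2i cells Kmt2a lay below untreated under 2-fold with separate intervals (−0.77), as did its paralog Kmt2c (−0.79), which had 5.67 [3.96 to 7.38] FPKM in 2i and 10.6 [8.11 to 13] FPKM in untreated cells. Their longest annotated transcripts have 16470 and 14967 bases, and protein-coding loci over 8000 bases had a median ratio of −0.18. Of 16 polycomb genes 1 was lower, Phf19 (−1.28, overlapping intervals). Of 20 p53 genes 1 was higher and 1 lower. The higher one, Gdf15, was at 16.4 [12.9 to 19.96] FPKM in 2i against 7.16 [5.48 to 8.84] FPKM in untreated cells, and the lower one, the BH3-only gene Pmaip1, at 9.19 [7.41 to 11] FPKM in 2i against 19.5 [15.8 to 23.1] FPKM in untreated cells. Trp53 itself stood at 305 [235 to 374] FPKM in 2i against 169.7 [120.1 to 219] FPKM in untreated cells. A second locus of the same name and span as Gdf15 was not part of that value.

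Outside these roles, imprinted genes had 1 of 25 higher and 2 lower, against 1.37% and 1.62% of all compared loci. Peg3, a paternally expressed zinc finger gene, had 8.8 [6.39 to 11.2] FPKM in 2i and 31.8 [25.4 to 38.2] FPKM in untreated cells, and a second locus of the same name and span makes this value uncertain. Nnat was lower with overlapping intervals (−1.11). The locus joining Mirg with 9 microRNA genes had a ratio of 2.01 in FPKM but −0.055 in CPM, on estimated counts of 242 in 2i and 237 in untreated cells, so its direction flips with the scaling. HOX genes had 1 of 24 higher, the joint Hoxc10, Hoxc12 and Hoxc5 locus (1.01), and a median of 0.24. That locus went under 2-fold with the median set to 0 and with a pseudocount of 5. Of 18 retinoid and vitamin D genes 1 was higher, S100g.

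In both FPKM and CPM, 131 loci (0.836%) were past 2-fold higher and 215 (1.37%) lower in 2i cells. The 12 largest changes in each direction were taken among those of 1 gene name with separate intervals. S100g (chrX:162961992-162964599), the gene for the calcium-binding protein calbindin-D9k, had 80.2 [56 to 104] FPKM in 2i, 2.01 [0 to 5.99] FPKM in MM401, 1.56 [0 to 4.06] FPKM in Mll1_deleted and 13 [3.41 to 22.7] FPKM in untreated cells. Trpm1, a cation channel gene of retina and melanocytes, had 32.7 [20.7 to 44.8] FPKM in 2i cells, against 5.02 [0.562 to 9.49] FPKM in untreated cells. Fetub, a liver-secreted protease inhibitor gene, had 33.8 [27.5 to 40.1] FPKM in 2i and 6.95 [5.47 to 8.43] FPKM in untreated cells. Its neighbour within 100 kb, Ahsg, also rose. Cox6a2, the muscle form of an oxidase subunit, had 18.6 [11.9 to 25.2] FPKM in 2i and 3.45 [1.22 to 5.67] FPKM in untreated cells, on estimated counts of 494 in 2i and 86.1 in untreated cells. The others that rose were Cxcl14, Wisp2, C1qtnf3 and 1500015O10Rik, at ratios between 2.01 and 2.14. Here too the part of the feeder cells was not tested.

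In FPKM the lowest ratio of this set was at Spink1, a secreted trypsin inhibitor gene, with 0.43 [0 to 0.98] FPKM in 2i, 1.91 [0.806 to 3.01] FPKM in MM401, 3.02 [1.65 to 4.39] FPKM in Mll1_deleted and 29.9 [23.2 to 36.6] FPKM in untreated cells, a ratio of −4.43. In CPM its ratio was −3.01, and those of Lhx1, Cer1 and Fgf5 were lower (−3.56, −3.49 and −3.40). Its 2i value rests on estimated counts of 9.63 in 2i and 669.8 in untreated cells. Car4, a carbonic anhydrase anchored to the cell surface, had 4.61 [3.45 to 5.77] FPKM in 2i, 16.7 [12.9 to 20.5] FPKM in MM401, 14.1 [10.9 to 17.2] FPKM in Mll1_deleted and 43.3 [34.4 to 52.3] FPKM in untreated cells. Amot, which encodes the YAP-binding scaffold angiomotin, had 3.23 [2.48 to 3.99] FPKM in 2i, 4.92 [3.85 to 5.98] FPKM in MM401, 6.44 [5.01 to 7.87] FPKM in Mll1_deleted and 24.8 [19.6 to 29.9] FPKM in untreated cells. Enpp3, a surface nucleotide phosphatase gene, had 9.99 [6.67 to 13.3] FPKM in 2i and 56 [41.4 to 70.6] FPKM in untreated cells, and Nphs1, the nephrin gene of kidney podocytes, had 5.98 [3.44 to 8.52] FPKM in 2i and 28.8 [18.7 to 38.9] FPKM in untreated cells. Apoa1, the main protein of high density lipoprotein, had 0.71 [0.278 to 1.14] FPKM in 2i and 7.44 [5.73 to 9.15] FPKM in untreated cells, and its neighbour Apoa4 fell as well. Gm27247 was in the set too (−2.17), but it spans the same region as Pou3f1 in the files, and the sources used here do not say if reads were counted by strand.

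Across all 4 groups the genes lower in 2i followed more than 1 pattern. The 3 treated groups share the same untreated column, so an extreme untreated value enters all 3 comparisons. The 2i cells were in medium with serum replacement and the MM401 and Mll1_deleted cells in serum medium. Between 2i and these 2 groups, effects of treatment and of medium cannot be told apart. Fgf5 stood at 0.498 [0.181 to 0.814] FPKM in 2i, 0.734 [0.285 to 1.18] FPKM in MM401, 0.473 [0.299 to 0.648] FPKM in Mll1_deleted and 8.66 [6.22 to 11.1] FPKM in untreated cells. Otx2 stood at 7.96 [5.93 to 9.99] FPKM in 2i, 5.53 [3.99 to 7.08] FPKM in MM401, 10.2 [7.45 to 13] FPKM in Mll1_deleted and 33.2 [25.7 to 40.6] FPKM in untreated cells, and Lefty1 at 14.6 [9.98 to 19.2] FPKM in 2i, 9.8 [6.55 to 13] FPKM in MM401, 14 [9.87 to 18.1] FPKM in Mll1_deleted and 89 [68.7 to 109] FPKM in untreated cells. For these 3 genes the untreated interval lay above that of every treated group, and Cer1, Apoa1 and Lhx1 had the same order. In contrast, Clu, a secreted chaperone gene, stood at 35 [25.4 to 44.6] FPKM in 2i, 185 [142 to 229] FPKM in MM401, 62.8 [46.4 to 79.2] FPKM in Mll1_deleted and 105 [80.5 to 129.9] FPKM in untreated cells, and Tcf15 at 13.9 [11.1 to 16.8] FPKM in 2i, 24.6 [19.8 to 29.5] FPKM in MM401, 53.2 [43.2 to 63.3] FPKM in Mll1_deleted and 43.2 [35 to 51.5] FPKM in untreated cells. Platr14, a long noncoding RNA gene, was at 36 [24.7 to 47.3] FPKM in 2i, 197 [141 to 253] FPKM in MM401, 139 [98.9 to 179] FPKM in Mll1_deleted and 118 [83.2 to 153] FPKM in untreated cells, and for these 3 genes the 2i interval lay below those of all 3 other groups. Clu, Platr14 and the comparison of Tcf15 were chosen after their values were seen.

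Ratios also followed transcript length and base composition. Among 11886 single-name protein-coding loci, the median ratio was 0.28 where the longest annotated transcript had up to 1000 bases and −0.18 where it had over 8000. By GC content the median was −0.16 between 40 and 45% and 0.29 between 55 and 60%. Spearman's rho across genes, which are not independent, was −0.30 with length and 0.36 with GC content. MM401 over untreated ran the other way with length, at −0.28 and 0.07 for the same length classes, and Mll1_deleted over untreated was at −0.06 and 0.06. Corrected by length class, 121 loci were higher and 294 lower, and corrected by GC class 108 and 257. Formative and primed genes had medians of −1.29 and −1.36 after these corrections, and fibroblast markers 0.73 and 0.57.

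**Figure D5:**
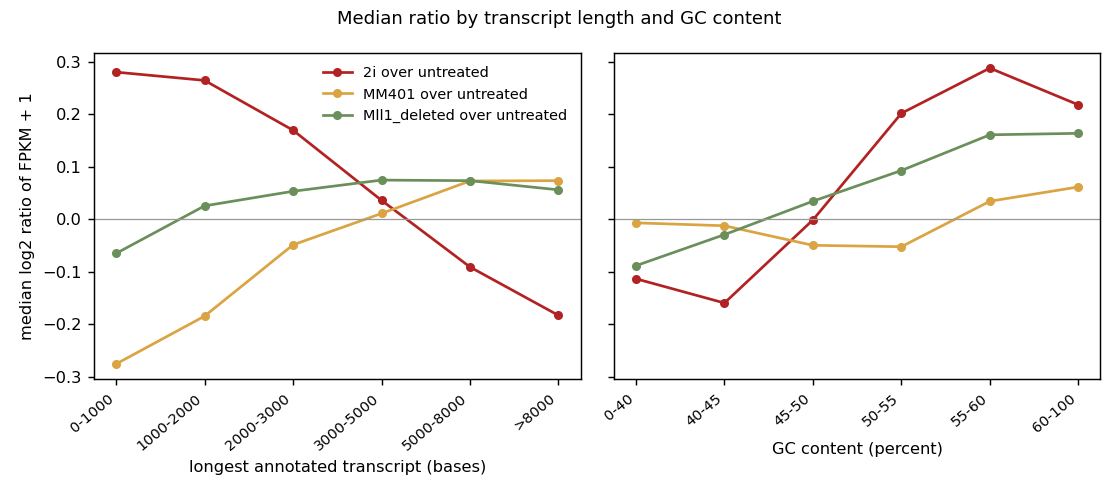
Median log2 ratio of FPKM + 1 over untreated cells for 2i (red), MM401 (gold) and Mll1_deleted cells (green), by longest annotated transcript in bases (left) and GC content in percent (right). For 2i the median falls along the length classes, with 0.28 in the shortest and −0.18 in the longest, and is 0.29 at 55 to 60% GC.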

How the data were processed

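RNA was taken from 8 libraries in 4 groups, and the 2i and untreated groups, 2 libraries each, were compared. The submitters' processing notes name the mm10 build and the tools TopHat2 2.1.1, SAMtools 1.5 and deepTools, with no role given. Per the file headers, the authors deposited FPKM values with a lower and an upper limit and a status per group, with the interval level and the program not given in the sources used here. A second deposited table holds estimated counts per locus, per the file headers, which need not be whole. There is 1 column per group in each table, so both libraries enter as 1 value. The limits of a pooled value do not show the spread between cultures.

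Named loci with status OK in both groups and at least 100 estimated counts in either were kept. Left out were 11475 unnamed loci, 148 with another status and 34236 under the count minimum. The log2 ratio used FPKM with a pseudocount of 1, and 2-fold was the threshold. Named genes are the 12 largest changes each way, up to 6 members past 2-fold of each of 38 lists (2 where none passed) and a set of pluripotency, WNT and MLL1 genes. Other genes were named after their values were seen. The members and lists were chosen with earlier results of these data known. Coordinates come from GENCODE M21 and promoters from RefSeq (GRCm38.p6), the build of the files. The calculation was tested on simulated data, with Python 3.11.15, pandas 2.3.3 and numpy 2.4.6. Alternatives were the pseudocount, the count minimum, CPM, centring, joint loci, the threshold and, chosen after seeing the data, correction by transcript length and GC class.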

Additional observations from a re-analysis of the deposited data

Results flagged for a closer look

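Loci without a gene name were outside the comparisons above. Of 410 such loci with at least 100 estimated counts in either group, 6 were at least 2-fold higher and 4 at least 2-fold lower in 2i cells. Among the named loci compared, 1.37% were higher and 1.62% lower, so these counts do not set the unnamed loci apart. In CPM as well, 2 of the higher and 3 of the lower were past 2-fold. They were flagged only because they lie in data that the comparisons did not use. Most are short and rest on few fragments. The largest ratio, 6.81, was at chr15:99915443-99915512 (mm10), on 118 estimated counts in 2i and 0.963 in untreated cells, but 1.19 in CPM. At chr14:14668915-14683687, the longest of them, the ratio was −1.69, on 634 counts in 2i and 3496 in untreated cells. No gene name is paired with either in the files.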

How the results depend on the processing

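No paired analysis was possible because each table holds 1 pooled column per group, and leaving out a replicate was not run for the same reason. The counts of 215 loci higher and 254 lower in 2i changed most with the threshold and the treatment of low values. With a pseudocount of 0.1 there were 413 and 696, with a pseudocount of 5 there were 87 and 73, with no count minimum 468 and 666, and at 1.5-fold 1491 and 1200. In CPM there were 175 and 640. After correction by transcript length 121 were higher and 294 lower, and by GC content 108 and 257, both chosen after seeing the data. A minimum of 500 counts gave 186 and 197, loci of 1 name 183 and 221, separate intervals 157 and 180, and the median set to 0 175 and 320. Of the 76 named genes past 2-fold, 76 remained so at a pseudocount of 0.1, 48 at 5, 66 in CPM and 73 with the median set to 0. Of the 69 with an annotated length, 63 remained after the length and 55 after the GC correction. Those lost at a pseudocount of 5 included Cer1, Lhx1, Fgf15, Sox1, Fmod, Id3, Elovl6, Fzd7, Cxcl12 and Arrdc4. Among those lost under GC correction were Col6a2, Col4a2, Elovl6, Cxcl12, Ccl2, Gdf15 and Pmaip1, and under length correction Sox11 and Rhox6. The Mirg locus alone changed sign among the named genes past 2-fold, with 2.01 in FPKM and −0.055 in CPM. At a minimum of 500 counts the median of the streak and mesoderm list was −1.29 and that of the secreted inflammatory list 0.49. The causes were not tested. Estimated counts of 2.46 for Cer1 and 9.63 for Spink1 in 2i cells limit the precision of their ratios, and the spread between cultures cannot be seen in pooled values.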
